A study of Solanum lycopersicum with 2 samples.

Results

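A run of 44 tomato gene identifiers numbered on chromosome 1, from Solyc01g007260.2 to Solyc01g007690.2, was described in red ripe fruit of the wild type and of an ALMT9 overexpression line. Its members are every identifier in that number range, whatever its level and version, out of 34725 identifiers in the table. The run was proposed because a stretch of neighbouring loci in it was lower in the overexpression library, so the values below chose the members and are given as a description. The locus Solyc01g007330.2 is placed in the run as a copy of rbcL, the chloroplast gene of the large subunit of Rubisco, which fixes carbon dioxide. The table pairs no identifier with a gene name, so the other members are given by identifier.

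Chloroplasts keep a small circular genome of their own, which codes for core proteins of the photosystems, the cytochrome complex and the ATP synthase, for the large subunit of Rubisco, and for parts of the plastid ribosome and RNA polymerase. Stretches of this genome are also found copied into plant nuclear chromosomes. In ripening tomato fruit, chloroplasts turn into chromoplasts, which lose chlorophyll and store carotenoids. Reads of a plastid transcript and of its nuclear copy can be near-identical, and how the authors treated reads that align in more than 1 place is not given in the sources used here. Reads of the plastid genome and of nuclear copies could therefore not be told apart.

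Total RNA of fruit was sequenced, with 1 wild type library and 1 from a line that overexpresses ALMT9, which belongs to the aluminum-activated malate transporters, channels of plant membranes. Fruit of both genotypes was taken 49 days after flowering from 3 plants. The labels give neither the cultivar, the promoter of the transgene nor the number of independent lines, and they do not say whether fruit was pooled. With 1 library per genotype there is no replicate check and no test, and each comparison is of these libraries. Values are RPKM, that is, reads scaled to the length of the gene model and the depth of the library. From the values, the wild type library was worked out to hold 19736832 reads and the overexpression library 19252026. Solyc06g072910.2, entered for ALMT9, had 0.0742 RPKM in wild type fruit and 20.5 RPKM with overexpression, the direction of the label. The 5 loci entered for ripe fruit genes (polygalacturonase, phytoene synthase 1, E8, ACC oxidase 1 and expansin 1) were at 554 RPKM or more in both libraries. Their levels differed between the libraries, in both directions. From wild type to overexpression, ACC oxidase 1 went from 648 to 2363 RPKM, expansin 1 from 1300 to 1698 and polygalacturonase from 554 to 657. E8 went from 3979 to 2011 RPKM and phytoene synthase 1 from 2408 to 1614 RPKM.

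Nearly every locus of the run with reads was lower in the overexpression library. Of the 44 identifiers, 39 had a lower RPKM in the overexpression library, 1 had a higher one, and 4 were listed at 0 in both libraries. Over the whole table, 46.1% of the identifiers above 0 had the lower value in the overexpression library. The 4 at 0 were Solyc01g007270.1, Solyc01g007510.1, Solyc01g007590.2 and Solyc01g007620.2. Another 6 were above 0 with a mean of the libraries under 1 RPKM. The remaining 34 had a mean of at least 1 RPKM, and the counts and medians below are over these 34.

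**Figure D1:**
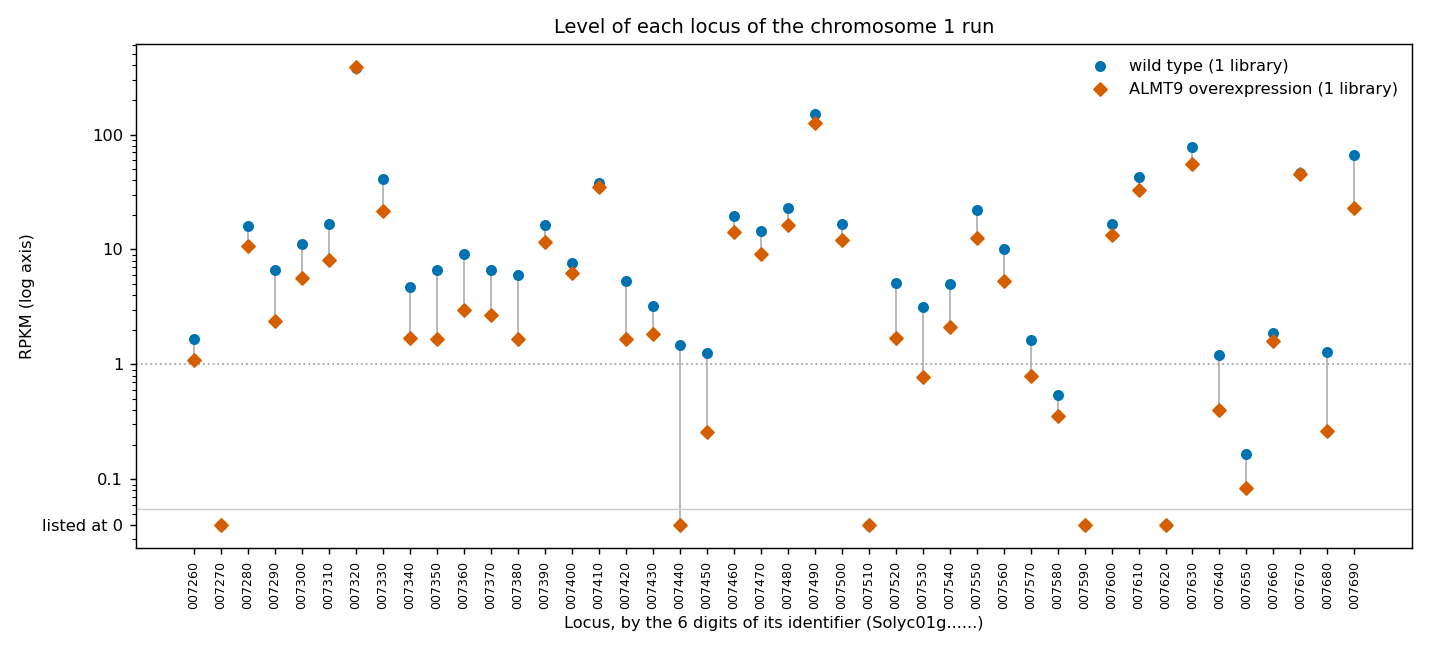
RPKM of each of the 44 loci in identifier order on a log axis, with circles for the wild type library, diamonds for the overexpression library, a grey line joining both and a dotted line at 1 RPKM; loci without reads are drawn at the level marked as listed at 0. The diamond lies below the circle at 39 loci, and Solyc01g007320.2 is the only locus at which it lies above.

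Differences were taken as log2((overexpression + 1)/(wild type + 1)) of RPKM, called the log2 difference here. The median over the 34 loci was -0.59, with a lowest value of -1.51 and a highest of 0.04. Their median level was 12.7 RPKM in wild type fruit and 7.15 RPKM with overexpression. Over all 17287 genes with a mean of at least 1 RPKM the median log2 difference was 0.02, with an SD across genes of 0.74. Of the 34 loci, 33 had a negative log2 difference, against 48.8% of all genes. A count of 10 loci was at least 2-fold lower, against 4.3% of all genes, and none was 2-fold higher, against 8.09%. These shares stand beside the counts as background only, since the run was chosen from this contrast. In bulk fruit, fewer cells or plastids of a kind and less RNA in each cannot be told apart.

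**Figure D2:**
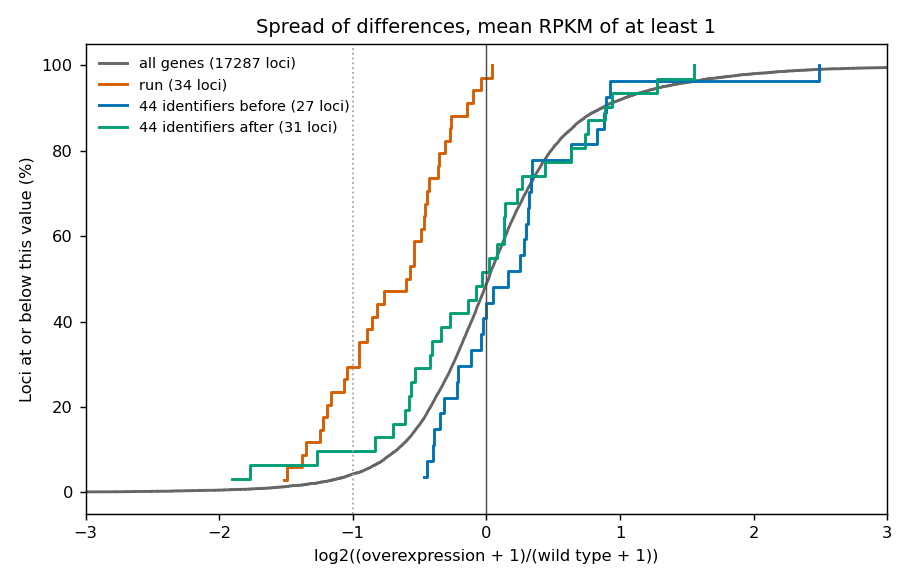
Share of loci in percent at or below each log2 difference, as step curves for all genes, the run and the 44 identifiers on either side, among loci with a mean of at least 1 RPKM; the dotted line marks 2-fold lower, and the tails of all genes run past the axis. The curve of the run lies to the left, with a median of -0.59 against 0.16 before it and -0.03 after it.

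For some of these loci, counting error was wide enough to include no difference. An exact (Clopper-Pearson) 95% interval of the RPKM ratio of overexpression to wild type was computed from the whole reads recovered for each locus. It lay below 1 for 24 of the 34 loci, spanned 1 for 9 and lay above 1 for 1 locus. Over all genes, 29.9% had an interval below 1 and 32.5% one above 1. Depth was modest, since 17 of the 34 loci had under 100 recovered reads in the wild type. The intervals cover counting error only.

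The rbcL-like locus was among the lower ones. Solyc01g007330.2 went from 40.8 RPKM in wild type fruit to 21.6 RPKM with overexpression. This is a ratio of 0.528 (counting interval 0.484 to 0.577), from at least 1488 and 767 reads. Its log2 difference was -0.89. The locus just before it, Solyc01g007320.2, did not share this difference. It was the most abundant of the run, at 376 RPKM in wild type fruit and 388 RPKM with overexpression, and the only one with a positive log2 difference, 0.04. Its ratio was 1.03 (interval 1.01 to 1.05), so these neighbours had intervals far apart.

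Solyc01g007320.2 also had the largest share of any sum over the run. It held 59.9% of the run's recovered wild type reads and 70.2% of those of the overexpression library. The ratio of summed reads, scaled to the library totals, was 0.880, and 0.654 without this locus. Its share of summed RPKM was smaller. The summed RPKM of the 44 identifiers was 1103 in wild type fruit and 878 with overexpression, a ratio of 0.796. Without Solyc01g007320.2 the ratio of summed RPKM was 0.674. The next most abundant locus, Solyc01g007490.2, went from 152 to 126 RPKM, a ratio of 0.828 (interval 0.777 to 0.882).

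The 5 loci that follow the rbcL-like locus made the lowest stretch inside the run. Solyc01g007340.2 went from 4.68 RPKM in wild type fruit to 1.71 RPKM with overexpression. Solyc01g007350.2 went from 6.63 to 1.68 RPKM, with the lowest log2 difference of the run, -1.51. Solyc01g007360.2 went from 9.07 to 2.95 RPKM. All 3 were at least 2-fold lower, with ratios of 0.365, 0.253 and 0.325. Solyc01g007370.2 went from 6.58 to 2.67 RPKM, and Solyc01g007380.1 from 5.95 to 1.67 RPKM. The median log2 difference of these 5 loci was -1.35, and every one of their counting intervals ended below 0.6. Stretches were marked out after their values were seen and are a description.

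The next loci in order were closer to the wild type. Solyc01g007390.1 went from 16.3 to 11.5 RPKM and Solyc01g007400.1 from 7.64 to 6.18 RPKM. Solyc01g007410.2, at 37.6 and then 35.0 RPKM, had a log2 difference of only -0.10. All 3 intervals spanned 1, from at most 109 recovered reads in the wild type. The difference then widened again at Solyc01g007420.2, which went from 5.32 to 1.66 RPKM. Its ratio was 0.312 (interval 0.113 to 0.751), from at least 23 and 7 reads. The loci Solyc01g007440.1 and Solyc01g007450.1, of 2 and 5 recovered reads in the wild type, had too few recovered reads for a comparison.

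From Solyc01g007460.2 to Solyc01g007500.2 the differences were moderate and alike. The 5 loci had log2 differences between -0.60 and -0.27, at wild type levels of 14.4 to 152 RPKM. Solyc01g007480.1, for example, went from 22.7 to 16.2 RPKM, and Solyc01g007500.2 from 16.8 to 12.1 RPKM. The intervals of 4 of the 5 lay below 1, and that of Solyc01g007460.2 reached 1.10. The 3 loci from Solyc01g007520.2 to Solyc01g007540.2 were low again. They went from 5.13 to 1.68, from 3.15 to 0.784 and from 5.04 to 2.13 RPKM, and all 3 intervals ended below 0.67.

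By their median, the later identifiers, from Solyc01g007550.1 on, were less low. Of these 15, 9 had a mean of at least 1 RPKM, all with a negative log2 difference, and their median was -0.49. For the identifiers up to Solyc01g007540.2 the median was -0.85 over 25 loci. The ratio of summed RPKM had the opposite order, at 0.660 for the later identifiers and 0.844 for the earlier ones. The earlier sum includes Solyc01g007320.2. The later expressed loci were also more abundant, with a median of the mean level of 17.2 RPKM against 6.91 RPKM. Solyc01g007550.1 went from 22.0 to 12.5 RPKM and Solyc01g007560.2 from 10.1 to 5.27 RPKM. Better covered loci further on differed less. Solyc01g007610.2 went from 42.5 to 32.8 RPKM, with a ratio of 0.772 (interval 0.715 to 0.833). Solyc01g007630.2 went from 78.2 to 55.5 RPKM, with a ratio of 0.709 (interval 0.662 to 0.759). Solyc01g007670.2 was nearly level at 46.4 and 45.1 RPKM, with an interval of 0.836 to 1.13, and Solyc01g007660.2 was at 1.87 and 1.59 RPKM. Solyc01g007640.2, with a mean under 1 RPKM, broke this pattern. It went from 1.21 to 0.399 RPKM, a ratio of 0.330 (interval 0.207 to 0.510). The final member, Solyc01g007690.2, also broke it by going from 67.0 to 23.1 RPKM, a ratio of 0.345 (interval 0.309 to 0.384).

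Within the run, weakly expressed loci were further below the wild type than abundant ones. The 17 loci with a mean from 1 to 10 RPKM had a median ratio of 0.406, and 9 of them were at least 2-fold lower on the log2(RPKM + 1) scale. The 17 loci at 10 RPKM or more had a median ratio of 0.715, and on the same scale only Solyc01g007690.2 of these was 2-fold lower. Without the pseudocount Solyc01g007310.2 would also count among these, with a ratio of 0.488. Of the loci from 1 to 10 RPKM, Solyc01g007540.2 and Solyc01g007570.2 would then be added, with ratios of 0.422 and 0.492. Spearman's rho between the RPKM ratio and the mean level was 0.57 across the 34 loci, and -0.07 across the 16713 expressed genes with at least 20 recovered reads. With the log2 difference in place of the ratio, rho was 0.42 and -0.06. Ratio and recovered gene model length had a rho of 0.07 in the run. The loci share both libraries, and the ratio and the mean level are made from the same values, so these coefficients are descriptions.

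**Figure D3:**
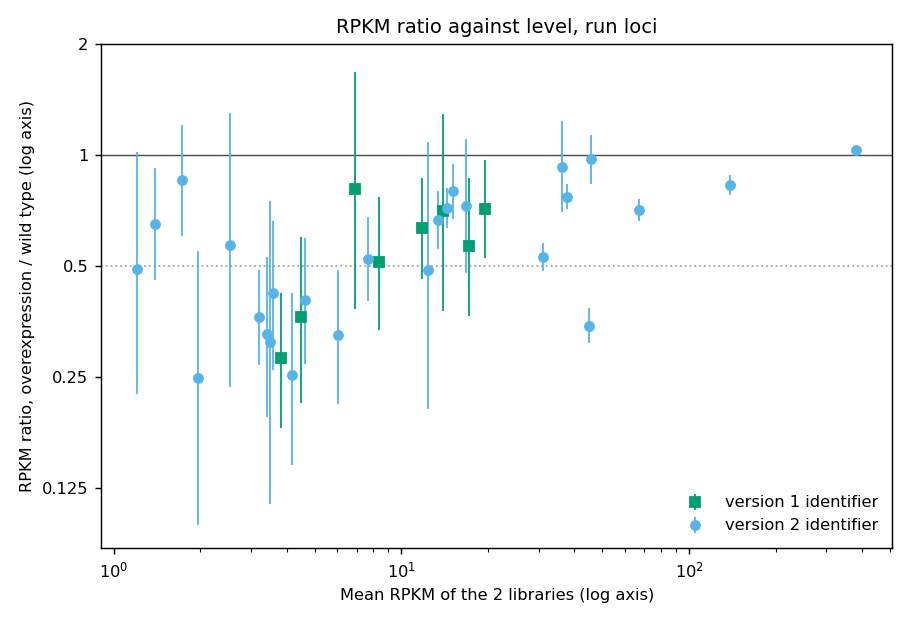
RPKM ratio of overexpression to wild type against the mean RPKM of the libraries for the 34 loci, both on log axes; bars are exact 95% counting intervals, squares are version 1 identifiers and circles version 2, and the dotted line marks a ratio of 0.5. Loci under 10 RPKM have a median ratio of 0.406 and those above a median of 0.715, and Solyc01g007690.2 is the lowest of the latter at 0.345.

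The order of the loci by level was much the same in both libraries, as it was for all genes. Across the 34 loci the log2 RPKM values had a Spearman rho of 0.97, against 0.92 across the 16713 genes with at least 20 reads. Between adjacent expressed loci of the run, the median step in log2 difference was 0.20 and the largest was 1.46, at the passage from Solyc01g007670.2 to Solyc01g007690.2.

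The sign of the difference turned at the first member of the run, while the other end was not clear-cut. Just before the run, Solyc01g007220.2 went from 387 to 479 RPKM, Solyc01g007230.2 from 21.3 to 33.6 RPKM and Solyc01g007250.2 from 13.6 to 24.8 RPKM. All 3 were higher in the overexpression library, with log2 differences of 0.31, 0.63 and 0.83 and intervals above 1. The first member, Solyc01g007260.2, went from 1.68 to 1.10 RPKM, a log2 difference of -0.35 with an interval of 0.458 to 0.922. Further back, however, Solyc01g007180.2, Solyc01g007190.2 and Solyc01g007200.2 had log2 differences of -0.32, -0.21 and -0.46, close to that of the first member. If 5 loci in succession at or above 0 are needed to bound the run, its start moves back to Solyc01g006230.2.

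After the last member the difference grew before it faded. Solyc01g007700.2 went from 7.82 to 3.96 RPKM and Solyc01g007710.2 from 173 to 71.1 RPKM. Solyc01g007720.2 went from 134 to 38.8 RPKM. At Solyc01g007730.2, which went from 376 to 99.5 RPKM, the log2 difference of -1.91 was lower than that of any member of the run, and its ratio was 0.265 with an interval ending at 0.290. The 5 loci from Solyc01g007690.2 to Solyc01g007730.2 had a median log2 difference of -1.50, from at least 7580 wild type reads and 2366 reads with overexpression. Beyond them, Solyc01g007740.2 went from 161 to 121 RPKM, Solyc01g007750.2 from 14.2 to 11.1 RPKM and Solyc01g007760.2 from 25.4 to 24.0 RPKM. Solyc01g007770.2, which went from 29.1 to 49.4 RPKM, was the first locus after the run to be higher in the overexpression library.

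Where the run ends depends on the rule. If a single locus at or above 0 ends it, a rule added after the values were seen, the last lower locus was Solyc01g007760.2, so that 40 of 41 expressed loci from Solyc01g007260.2 on were lower, counting past Solyc01g007320.2. If 3 in succession are needed, the last was Solyc01g008070.2, with 49 of 59 lower. After Solyc01g007760.2, however, loci of both directions alternated. Of the 24 expressed loci in the rest of the 44 identifiers that follow the run, 9 were lower and 15 higher, with a median log2 difference of 0.13.

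**Figure D4:**
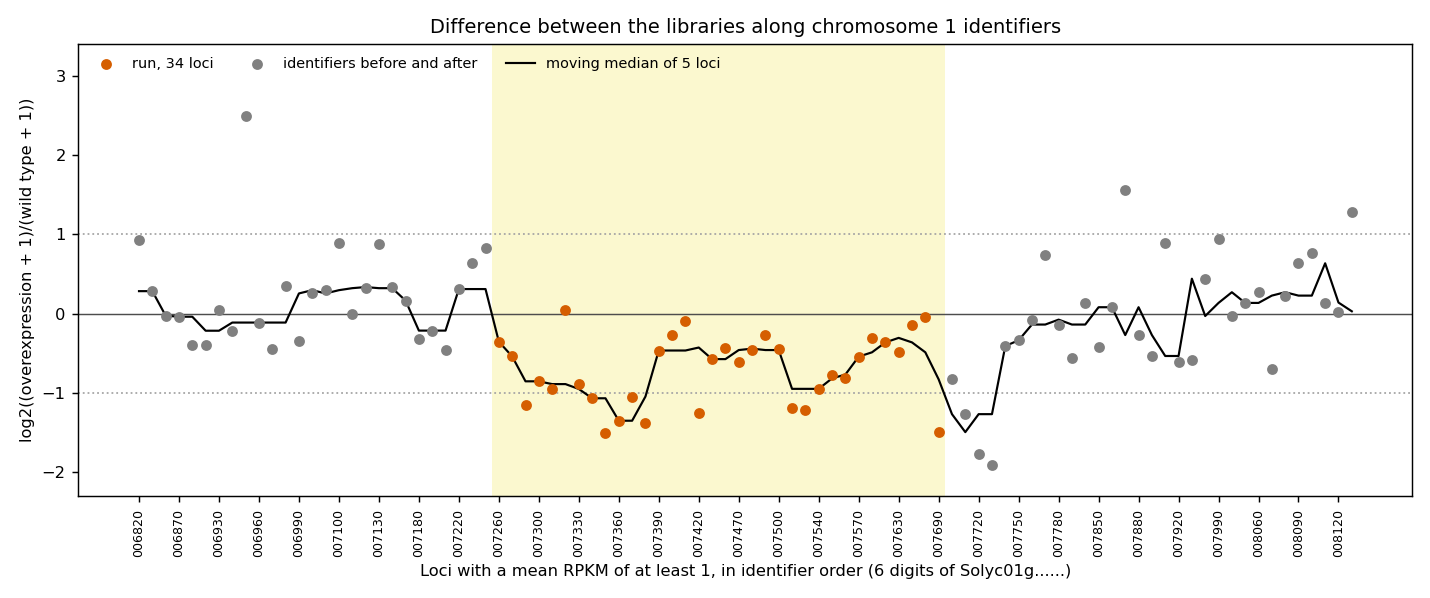
Log2 difference of each locus with a mean of at least 1 RPKM in identifier order, for the run (shaded) and the 44 identifiers on either side; the black line is the moving median of 5 loci and dotted lines mark 2-fold. Points lie above 0 just before the shaded range, nearly all below 0 inside it, and reach -1.91 past its right edge before both signs mix.

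The 44 identifiers before the run and the 44 after it served as neighbours that the rule does not hold. Before it, 12 of 27 expressed loci had a negative log2 difference, none was 2-fold lower, and the median was 0.16. After it, 16 of 31 were negative, 3 were 2-fold lower, and the median was -0.03. The 3 were Solyc01g007710.2, Solyc01g007720.2 and Solyc01g007730.2, the loci next to the run described above.

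Gene model lengths are the one property here that bears on the plastid label and was not used by the rule. Lengths were recovered as the shortest at which both RPKM values are whole reads, so a true length can be a multiple of the one recovered. Among the 11 members above 0 with a version 1 identifier (the digit after the point), all 11 lengths were multiples of 3, as for models of coding sequence alone, against 92.7% of such models in the table. Of these 11 lengths, 5 equalled the length of a protein gene of the tomato plastid genome in RefSeq, against 10.1% of all version 1 models and 13.2% of those of 60 to 1000 bp. Of the 29 version 2 members, 1 length did so, against 2.08%. The comparison was chosen after the values were seen, and an equal length gives no gene name.

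Part of these equal lengths came in the order of the plastid genome. Solyc01g007290.1 had 477 bp, the length of ndhJ, which codes for a subunit of the plastid NADH dehydrogenase-like complex. Solyc01g007380.1 had 963 bp, the length of petA, the gene of cytochrome f. Solyc01g007450.1 and Solyc01g007470.1 had 201 and 387 bp, the lengths of rpl33 and rpl20, genes of proteins of the plastid ribosome. The 201 bp came from recovered reads of 5 and 1, and the true length can be a multiple of it. Among the 80 RefSeq plastid protein genes in map order, ndhJ, petA, rpl33 and rpl20 stand at places 24, 34, 42 and 44, and rbcL at place 29, between ndhJ and petA, as Solyc01g007330.2 stands between their loci of equal length. Of all plastid protein genes from place 24 to place 44, only ndhJ, petA, rpl33 and rpl20 had a member of equal length. The others had none, among them rbcL, psbE (252 bp, place 38) and rps18 (306 bp, place 43). The other 2 equal lengths were out of the plastid order. Solyc01g007390.1, of 90 bp, matched petN at place 14, and Solyc01g007520.2, of 711 bp, matched rps2 at place 10. The rbcL-like model itself had 1846 bp, longer than the 1434 bp of plastid rbcL.

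All 6 loci with such a length were lower in the overexpression library, as the choice of the run fixes for nearly all members. Solyc01g007290.1 went from 6.59 to 2.40 RPKM, with a ratio of 0.364 (interval 0.213 to 0.600). Solyc01g007380.1 had a ratio of 0.281 (interval 0.183 to 0.422). Solyc01g007470.1 went from 14.4 to 9.13 RPKM, with a ratio of 0.634 (interval 0.461 to 0.865). Solyc01g007520.2 had a ratio of 0.327 (interval 0.195 to 0.530). The intervals of the remaining pair spanned 1. Their ratios were 0.707 (interval 0.379 to 1.29) at Solyc01g007390.1 and 0.205 (interval 0.0043 to 1.83) at Solyc01g007450.1. The latter came from at least 5 and 1 reads.

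Nuclear loci for partners of plastid proteins were mostly under 1 RPKM, and the others lay on both sides of the wild type. A list of 31 loci was entered from published assignments for the small subunit of Rubisco, which joins the large subunit coded by rbcL, and for light-harvesting proteins that carry chlorophyll. No table here holds these assignments, so members are not named singly. Of the 31, 6 were at 0 in both libraries and 8 had a mean of at least 1 RPKM. Of these 8, 3 had a negative log2 difference, against 48.8% of all genes, and the median was 0.25. The 6 light-harvesting loci among them split evenly, with a median of -0.06, and both small subunit loci among them were higher with overexpression. None of the 8 was 2-fold apart on the log2(RPKM + 1) scale, although a small subunit locus of 0.588 and 1.81 RPKM had a ratio of 3.08 (interval 1.06 to 10.8). Among loci with a mean under 1 RPKM, a light-harvesting locus was 2-fold higher on this scale. It went from 0.063 to 1.29 RPKM, a log2 difference of 1.11 and a ratio of 20.5 (interval 3.28 to 850). The most abundant small subunit locus went from 13.8 to 18.8 RPKM, while the rbcL-like locus went from 40.8 to 21.6 RPKM. The most abundant light-harvesting locus went from 27.0 to 16.0 RPKM. The difference between the list and the run was not tested.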

How the data were processed

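The authors deposited 1 table of RPKM values for 34725 gene identifiers in 2 libraries, 1 per genotype. Per the submitters' processing notes, reads were aligned with TopHat. Neither the counter, build, annotation and strand setting nor the handling of multi-mapped reads is given in the sources used here, so values of overlapping or near-identical genes are uncertain. Columns were matched to samples through the titles, and the genotype label gave the groups.

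Library totals were found from 782 genes with equal reads in both libraries. At these totals 61.8% of their lengths came out whole within 0.002 bp, against 31.7% at 2 times and 45.3% at 3 times. For each of the 24429 genes above 0, a length was sought, from 60 bp upward, at which both values are whole reads to the precision printed. The first such length was kept, and it was found for 24427 of these genes. Read numbers are therefore the smallest the values allow. The recovery and the 2-fold rule were tested on simulated data. Too small read numbers make intervals too wide, and all intervals cover counting error only.

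Differences used a pseudocount of 1 RPKM, which understates those of low genes, and a mean of at least 1 RPKM. The RefSeq table (assembly SLM_r2.1, 41476 genes) holds none of these identifiers and served only for lengths and order of plastid genes. Loci named in full were rbcL-like, the 10 most abundant, the 6 lowest and 6 highest, and those at the ends of the run. Stretches between them were added after their values were seen. Members and lists were chosen with earlier results of these data known. Calculations used Python 3.11.15, numpy 2.4.6, scipy 1.17.1, pandas 2.3.3 and matplotlib 3.10.9.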

Additional observations from a re-analysis of the deposited data

How the results depend on the processing

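The direction of the run held in every alternative run: its median log2 difference lay between -0.81 and -0.46. The count of 33 loci below 0 was 20 of 21 with a mean of at least 5 RPKM and 8 of 8 for version 1 models. The count of 10 loci at least 2-fold lower was 1 with a pseudocount of 5, 2 with a mean of at least 5 RPKM, 2 for version 1 models, 17 at 1.5-fold and 0 at 4-fold. Over the whole table, the 744 genes 2-fold lower were 342 with a pseudocount of 5. The ratio of summed RPKM, 0.796, was 0.822 with a mean of at least 5 RPKM, 0.748 with equal sums, 0.766 without the 100 highest genes in the sum, 0.595 and 0.818 for version 1 and version 2 models, and 0.674 without the most abundant locus. The median before the run, 0.16, was 0.077 without a filter, 0.080 with a mean of at least 5 RPKM and 0.077 with equal sums. The median after the run, -0.03, was -0.12 with equal sums and -0.086 without the 100 highest genes. It was 0.014 without a filter and 0.019 without a pseudocount among loci with at least 20 reads, so its sign is not settled. The cause was not tested. The nuclear list kept its direction, but the size of its median, 0.25, varied. It was 0.085 without a filter and 0.13 with a pseudocount of 5. Without a pseudocount, among loci with at least 20 reads, it was 0.43. With 3 loci in succession needed to end it, the lower run held 59 expressed loci from Solyc01g007260.2 to Solyc01g008070.2. With 2 it held 46, to Solyc01g007850.2, and with 1, a rule added after seeing the data, 41, to Solyc01g007760.2. With 5 it reached 54 loci further back, to Solyc01g006230.2.

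No paired analysis was possible because there is a single library of each genotype, which also leaves no replicate to omit. Depth makes ratios imprecise for members with few recovered reads, such as Solyc01g007450.1, with 5 recovered reads in the wild type.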
